A study of Mus musculus with 12 samples.

Results

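Blood progenitors of homozygous Pcna K164R mouse fetuses were compared with those of wild-type (WT) fetuses of the same age across the transcriptome. The genotype label, which names the Pcna and the Rev1 allele of each plate, assigned 2 of the 12 plates of the series to Pcna K164R with intact Rev1 and 3 plates to WT at both genes. The other plates were Rev1 knockout with unchanged Pcna (3 plates) and the double mutant, homozygous for both changes (4 plates). They entered the fit described here but not the group values. All plates share the C57BL/6J background, embryonic day 18.5, the fetal liver as source and a FACS sort for LSK cells. These lack mature lineage antigens, carry Sca-1 and Kit on their surface and include haematopoietic stem cells and multipotent progenitors. Each plate was a SORT-seq library, in which single cells are sorted into wells and the 3' end of each mRNA is tagged with a well barcode and a random molecular barcode (UMI). Nothing in the labels says how many fetuses contributed to a plate, so p-values measure only the spread between plates, which may be technical.

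Pcna encodes the sliding clamp that holds replicative DNA polymerases on their template. When a replication fork stalls at damage, the ligase Rad18 with its partner enzymes attaches ubiquitin to the lysine K164 of the clamp, which helps to bring in translesion polymerases, and longer ubiquitin chains on the same residue serve template switching. An arginine at this position cannot take up ubiquitin, so both routes that start from the modified clamp are cut off, whereas the replicative function of the clamp is thought to be largely kept. The changed codon is shown because it is what sets the mutant plates apart. In GENCODE vM21 the K164 codon, 1 of 261, lies in exon 4 of 6 of the coding transcript, at chr2:132251334-132251336 on the minus strand of GRCm38. The reference coding strand around it, at chr2:132251322-132251348, reads as follows, with the K164 codon in capitals.
Pcna around K164: atatcctgtgcaAAGaatggggtgaag
The base change that made the mutant allele is not stated in the labels, and counts of 3' tags cannot show it, so the level of Pcna does not check the label.

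Wells under 1000 UMIs were dropped, spike-in RNAs not counted, and each plate was reduced to its summed UMIs per gene. This left 354 and 280 wells with 8567277 and 4960419 UMIs on Pcna K164R replicates 1 and 2, and 381, 305 and 171 wells with 7259627, 2877113 and 2489661 UMIs on WT replicates 1, 2 and 3. The 2 Pcna K164R plates and WT replicate 1 were sorted on the same day, called session 1 here, whereas WT replicates 2 and 3 came from session 3. Flow cells cross the genotypes differently, since Pcna K164R replicate 2 shared its flow cell with WT replicates 2 and 3 and the other 2 plates each had another. Within a genotype no plates were near-identical, with chi-square statistics per degree of freedom of 8.70 or more. WT replicate 1 stood apart in ribosomal and mitochondrial RNA species. The mitochondrial ribosomal RNA mt-Rnr1 was at 3090 and 2060 CPM (counts scaled to the library) in Pcna K164R, against 9136, 2050 and 2622 CPM in WT. Mir5109 was at 359 and 328 CPM in Pcna K164R, against 2351, 261 and 765 CPM in WT. Among the plates that only shared the fit, double mutant replicate 3 was thin and the library labelled double mutant replicate 4 had Rev1 in the WT range, at 13.7 CPM before scaling, against 11.0, 20.5 and 13.3 CPM on the WT plates. All values below are CPM after TMM scaling, and each comparison with WT was tested with edgeR's quasi-likelihood test over all 12 plates with genotype and session as terms.

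The sort label was set against plate sums of a few markers, which do not describe single wells. Wells rich in mast cell or erythroid genes are described below. Kit, the stem cell factor receptor, was at 349 and 436 CPM on the Pcna K164R plates and at 390, 505 and 325 CPM on the WT plates. Cd34 was at 328 and 283 CPM in Pcna K164R, against 330, 273 and 272 CPM in WT. Ly6a, which encodes Sca-1, was at 41.5 and 43.5 CPM in Pcna K164R, against 56.0, 75.3 and 67.2 CPM in WT, so that the groups did not overlap. Of the lineage genes, Cd3e had no UMI on any of the 5 plates and the B cell gene Ms4a1 had at most 1, whereas Itgam stood at 7.91 and 8.08 CPM in Pcna K164R and at 10.9, 12.2 and 22.5 CPM in WT.

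No gene outside chromosomes X and Y passed the test. Of 11799 such genes, 0 had an adjusted p under 0.05 (0% called), and DESeq2 also called 0. At an unadjusted p under 0.05, edgeR gave 94 genes with higher values in Pcna K164R (0.797%) and 133 with lower values (1.13%), or 1.92% in either direction. The smallest adjusted p of any gene was 0.889. The median log2 fold change of all genes was -0.02 and the middle 50% lay between -0.25 and 0.20, with a median standard error of 0.36. The median half-width of the 95% interval was 0.79 on the log2 scale over all genes, 0.62 for the 1433 genes with mean levels of 100 to 1000 CPM and 1.52 for the 3433 genes under 10 CPM. Only 252 genes had a fitted log2 fold change above 1 and 323 one below -1, and of these 217 and 281 had mean levels under 10 CPM. Both Pcna K164R plates lay above all WT plates for 12.2% of the genes and below all of them for 11.9%, or 24.2% in either direction, so a gene whose plates do not overlap is common here.

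**Figure D1:**
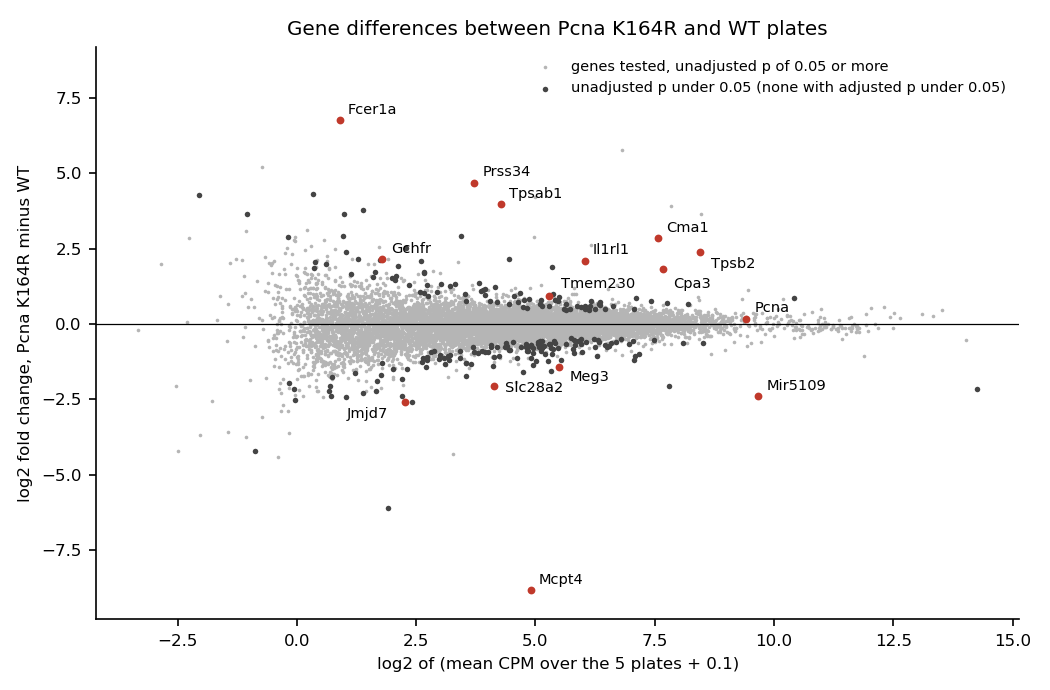
Each point is a gene outside chromosomes X and Y; the horizontal axis gives the log2 of its mean CPM over the 2 Pcna K164R and 3 WT plates plus 0.1, and the vertical axis its log2 fold change, Pcna K164R minus WT. Dark points have an unadjusted p under 0.05 in edgeR's test and red points are named in the text; 0 of 11799 genes had an adjusted p under 0.05.

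Of the 16 genes with the smallest p, 8 in each direction, 6 were genes of mast cells, the tissue granulocytes that store proteases and histamine and, like LSK cells, carry Kit. Of 19 tested genes of the mast cell and basophil list, 7 had an unadjusted p under 0.05 with higher values in Pcna K164R and 1 with lower values, beside the 0.797% and 1.13% of all genes above, and both Pcna K164R plates lay above all WT plates for 10 of them, beside 12.2% of all genes. In sums over a plate, fewer cells of a type and less RNA per cell cannot be told apart. Il1rl1, the receptor for interleukin 33, was at 109 and 156 CPM in Pcna K164R, against 45.6, 5.94 and 8.71 CPM in WT, a log2 fold change of 2.11 ± 0.50 (SE). The tryptase gene Tpsb2 was at 563 and 963 CPM in Pcna K164R and at 225, 0 and 0 CPM in WT, with a log2 fold change of 2.40 ± 0.82. For both genes WT replicate 1, the plate sorted on the same day as the mutant plates, was the highest of the WT plates. The chymase gene Cma1 stood at 255 and 602 CPM in Pcna K164R, against 86.9, 0 and 1.45 CPM in WT (log2 fold change 2.86 ± 0.79). The carboxypeptidase gene Cpa3 stood at 290 and 555 CPM in Pcna K164R, against 156, 7.19 and 5.81 CPM in WT (1.81 ± 0.57). Tpsab1, another tryptase gene whose reads may be shared with Tpsb2, had 339 and 294 UMIs in Pcna K164R, against 23, 0 and 0 UMIs in WT. In each case the groups did not overlap, and WT replicate 1 lay between the mutant plates and the other WT plates. Fcer1a, a chain of the high-affinity IgE receptor, had 21 and 34 UMIs in Pcna K164R and none on the WT plates, which makes it at least 17.1-fold higher against a floor of 3 UMIs over the WT group. Prss34, a protease of mast cells and basophils, had 388 and 112 UMIs in Pcna K164R, against 6, 0 and 2 UMIs in WT. Hdc, which makes histamine, was less far apart, at 159 and 212 CPM in Pcna K164R and 126, 14.996 and 18.9 CPM in WT (0.75 ± 0.47), and the basophil protease Mcpt8 overlapped between the groups.

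These UMIs came from few wells. A well was counted as rich in mast cell genes when at least 1% of its UMIs fell on 13 genes of this kind. On Pcna K164R replicates 1 and 2 there were 6 of 354 wells (1.69%, 95% exact interval 0.624 to 3.65%) and 10 of 280 wells (3.57%, 1.73 to 6.47%) of this kind. On WT replicate 1 there were 2 of 381 wells (0.525%, 0.0636 to 1.88%), and on WT replicates 2 and 3 there were 0 of 305 and 0 of 171 wells. A limit of 3 wells for a count of 0 allows shares of up to 0.984% and 1.75% there, and the upper bounds of the 95% exact intervals are 1.20% and 2.13%. The shares averaged 2.63% in Pcna K164R and 0.175% in WT. An exact two-sided permutation test over plates gave p = 0.1, the smallest value that 2 against 3 plates can give. These wells were taken up after mast cell genes had stood out on the same plates. The test also set session aside, so it decides nothing here. The intervals cover counting error only. The Pcna K164R plates held 16 of the 27 such wells of the whole series, which also had 4 among 783 wells of Rev1 knockout and 5 among 814 wells of the double mutant. The wells stood well clear of the limit. Mast cell genes took 6.59 to 15.9% of the UMIs in the 16 Pcna K164R wells and 9.18 and 10.4% in the 2 WT wells, while the highest other well of these 5 plates had 0.930%. Every one of the 16 Pcna K164R wells had UMIs of Tpsb2, Cma1, Cpa3, Kit and the transcription factor gene Gata2, 10 had a UMI of Ly6a, and none had the erythroid factor Klf1. Kit reached 22.6 and 22.3 UMIs per 10000 in these wells of Pcna K164R replicates 1 and 2, against 3.57 and 4.18 in the other wells of the same plates. Lower levels of the same genes ran through the rest of a plate that held such a well. Tpsb2 had 0.459 and 0.573 UMIs per 10000 in the other wells of the Pcna K164R plates and 0.503 in those of WT replicate 1, against 0 on WT replicates 2 and 3, which held none. With the mast-gene-rich wells of all plates left out, the log2 fold change of Il1rl1 was 0.77, that of Cma1 was 0.74 and the median of the mast cell list was 0.01, against 0.73 with all wells. In session 1 alone the median of the list was 1.05 and Il1rl1 had 1.55, and with flow cell in place of session these were 3.54 and 4.42. Without WT replicate 1 the median of the list was 0.13. In the fit with flow cell in place of session, Cma1, Cpa3, Il1rl1 and Tpsb2 had an adjusted p under 0.05 by edgeR, the only 4 genes that did.

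The gene with the smallest p of all had most of its UMIs in 1 well too, on a WT plate. Mcpt4, a chymase of connective tissue mast cells, had 2 and 2 UMIs on the Pcna K164R plates and 1124, 0 and 0 UMIs on the WT plates. Of the 1124 UMIs on WT replicate 1, 951 lay in 1 well, so the fitted log2 fold change of -8.83 ± 1.44 rested mostly on that well.

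**Figure D2:**
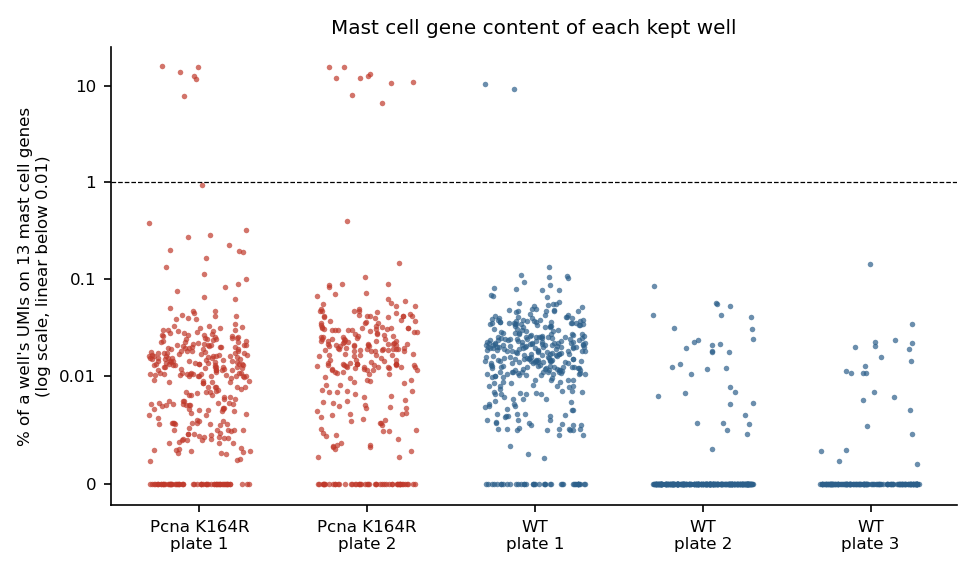
Each point is a kept well of the 5 plates, and the vertical axis gives the percentage of its UMIs on 13 mast cell genes, on a log scale that is linear below 0.01. The dashed line marks 1%; 6 and 10 wells of the Pcna K164R plates and 2, 0 and 0 wells of the WT plates lie above it.

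Outside the mast cell genes, several of the named genes lay on chromosome 2, which carries Pcna itself. Tmem230, a gene for a membrane protein of vesicles and the neighbour of Pcna, was at 48.2 and 61.4 CPM in Pcna K164R, against 28.6, 30.6 and 24.3 CPM in WT, with a log2 fold change of 0.93 ± 0.24. Prnp, which encodes the prion protein and starts 0.339 Mb from Pcna, was at 23.6 and 22.1 CPM in Pcna K164R, against 10.7, 9.37 and 4.36 CPM in WT (1.36 ± 0.42). Both were higher on the 2 mutant plates than on any WT plate. Jmjd7, Slc28a2, Plcb2 and Cd59a start within 30 Mb of Pcna and had lower values on both mutant plates. Jmjd7, which encodes a protein hydroxylase, was at 1.08 and 1.16 CPM in Pcna K164R and 5.53, 6.25 and 9.44 CPM in WT (-2.58 ± 0.62). The nucleoside transporter gene Slc28a2 was at 2.49 and 5.77 CPM in Pcna K164R and 11.6, 29.1 and 38.5 CPM in WT (-2.06 ± 0.58). The phospholipase gene Plcb2 was at 32.3 and 16.4 CPM in Pcna K164R and 50.5, 55.3 and 75.9 CPM in WT (-1.19 ± 0.35). Cd59a, which encodes an inhibitor of complement, was at 5.42 and 5.97 CPM in Pcna K164R and 13.04, 15.6 and 21.8 CPM in WT (-1.34 ± 0.38). Gchfr, a regulator of tetrahydrobiopterin synthesis chosen after its values were seen, was at 6.07 and 7.12 CPM in Pcna K164R and 1.32, 1.25 and 1.09 CPM in WT (2.16 ± 0.62).

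The share of such genes was set against distance from Pcna, with windows chosen after the values were seen and therefore without a test. Among 369 tested genes of chromosome 2 that start within 30 Mb of Pcna, 18 had an unadjusted p under 0.05 (4.88%), 9 with higher and 9 with lower values. The share was 2.9% of the 69 genes closest to Pcna, within 5 Mb, 6.53% of 199 genes within 15 Mb, 1.21% of 577 genes of chromosome 2 farther than 30 Mb away and 1.86% of 10851 genes elsewhere. Plates did not overlap for 33.3% of the genes within 5 Mb and 34.7% within 15 Mb, against 30.6% within 30 Mb and 23.7% on the rest of chromosome 2. The double mutant and Rev1 knockout plates, which differ in the same Pcna allele, were fitted on their own, although in the 12-plate fit they also inform the session term. In their own fit 0.527% of the genes had an adjusted p under 0.05, and all 18 genes had the same sign as above. Of the 18 genes, 12 had an unadjusted p under 0.05 there, beside 20% of all genes. These plates had also entered the fit that chose the 18 genes. The share with the same sign among all genes chosen that way was not counted, so 18 of 18 has no background here. Tmem230 was at 48.02, 54.4, 34.7 and 51.1 CPM in the double mutant, against 25.8, 22.9 and 27.6 CPM in Rev1 knockout. Plcb2 was at 17.8, 18.3, 8.68 and 18.2 CPM in the double mutant and at 68.4, 42.3 and 42.4 CPM in Rev1 knockout. For these 2 genes all plates with the Pcna change lay on 1 side of all plates without it. When genes were chosen by a fit of the 5 Pcna K164R and WT plates alone, 13 of 14 within 30 Mb (92.9%) had the same sign in the fit of the other 7 plates, which shares none with it, against 106 of 197 genes on other chromosomes (53.8%). These counts depended on few plates. Without double mutant replicate 4 they were 9 of 14 (64.3%) near Pcna and 82 of 200 (41%) on other chromosomes, and without replicates 3 and 4 and with no session term they were 13 of 14 (92.9%) and 183 of 206 (88.8%). Genes on chromosome 2 near Pcna were also not much more often separated over the whole series, since 31 of 369 (8.40%) had all plates with the change on 1 side of all plates without it when the thin double mutant replicate 3 was left out, against 7.13% elsewhere.

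**Figure D3:**
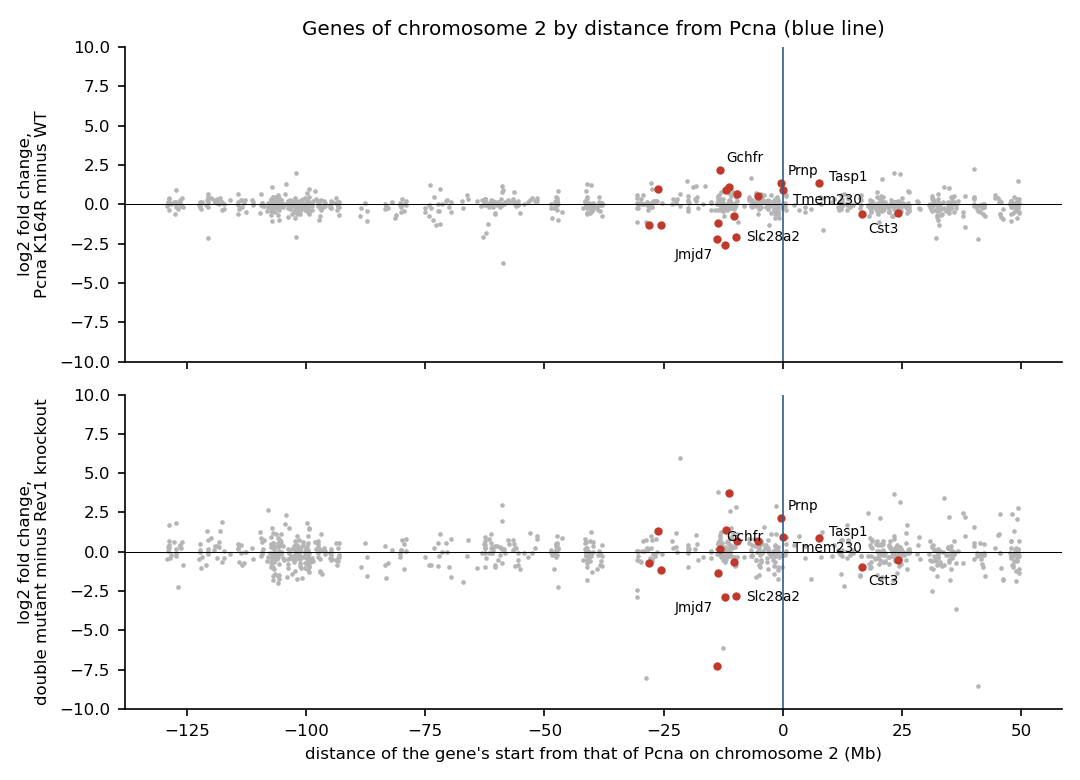
Each point is a tested gene of chromosome 2, placed by the distance in Mb of its start from that of Pcna; the vertical axes give the log2 fold change of Pcna K164R minus WT (upper panel) and of the double mutant minus Rev1 knockout in its own fit (lower panel). Red marks the 18 genes within 30 Mb with an unadjusted p under 0.05 in the upper comparison, all of which lie on the same side of 0 in the lower panel. The plates of the lower panel also entered the fit that chose these genes, and the same-sign share over all genes chosen that way was not counted.

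No gene of the pathways that act on the modified clamp passed, as was so for all genes tested. The counts below stand beside 1.92% of all genes with an unadjusted p under 0.05. Pcna itself was at 764 and 837 CPM in Pcna K164R, against 658, 716 and 430 CPM in WT, and its log2 fold change was 0.18 ± 0.44. Rev1 was at 10.51 and 7.51 CPM in Pcna K164R and at 10.54, 18.4 and 11.98 CPM in WT. Both mutant plates thus lay below all WT plates, as for 11.9% of all genes. The fitted log2 fold change was nevertheless 0.37 ± 0.61. It turned negative under 7 of the 32 alternatives that tested Rev1. These included no session term, session 1 alone and the fit without double mutant replicate 4. Rad18, the ligase for K164, was at 34.9 and 22.7 CPM in Pcna K164R and at 29.5, 25.3 and 25.0 CPM in WT (0.02 ± 0.26). Of 30 tested genes of DNA damage tolerance, none had an unadjusted p under 0.05, and the median log2 fold change was 0.01. The 3 with the smallest p were Ube2n, Poli and Ube2v2. Ube2n and Ube2v2 encode partners that together build the longer ubiquitin chains. Ube2v2 was at 86.3 and 90.1 CPM in Pcna K164R, against 67.4, 61.5 and 70.1 CPM in WT, and did not pass (0.32 ± 0.22). Usp1, which removes ubiquitin from the clamp, was at 237 and 237 CPM in Pcna K164R, against 193.9, 177 and 130 CPM in WT (0.27 ± 0.24). The 43 genes of the replication fork and clamp loading had none with an unadjusted p under 0.05 and a median of 0.07, and Pole2, Rfc4 and Pole3 had the smallest p. The 19 Fanconi anaemia genes had none and a median of 0.01. Of 39 checkpoint and homologous recombination genes, 1 had a p under 0.05, Rpa3, whose plates overlapped widely at 23.5 and 68.5 CPM in Pcna K164R and 16.3, 86.5 and 7.62 CPM in WT.

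Targets of p53, the transcription factor that answers DNA damage, showed small differences. Of 33 tested targets 23 had log2 fold changes above 0. Among the 33, 2 had an unadjusted p under 0.05 with higher values and none with lower values, beside 0.797% and 1.13% of all genes. Both Pcna K164R plates lay above all WT plates for 7 and below them for 2, beside 12.2% and 11.9% of all genes. The median was 0.07, between 0.02 and 0.23 under the 33 alternatives. Ccng1, which encodes cyclin G1, was at 136 and 125 CPM in Pcna K164R, against 85.9, 74.0 and 74.4 CPM in WT, with a log2 fold change of 0.58 ± 0.24. The non-coding gene Pvt1 was at 19.5 and 16.9 CPM in Pcna K164R, against 10.4, 4.69 and 5.81 CPM in WT (0.99 ± 0.39). Psrc1 had the next smallest p (0.56 ± 0.26). For all 3 genes both mutant plates were above all WT plates. Cdkn1a, the gene for the cell cycle inhibitor p21 and a widely used p53 target, was at 28.8 and 27.5 CPM in Pcna K164R, against 21.5, 6.87 and 11.3 CPM in WT (0.62 ± 0.30), and WT replicate 1 of the same session was the closest WT plate. Not every target lay on that side. Mdm2, the ligase that degrades p53, was at 61.2 and 81.2 CPM in Pcna K164R and 58.0, 70.9 and 64.3 CPM in WT (0.02 ± 0.30), and the repair gene Xpc was at 35.4 and 32.1 CPM in Pcna K164R and 39.8, 55.0 and 61.4 CPM in WT (-0.56 ± 0.36).

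Genes of G2 and mitosis had mostly higher values in Pcna K164R. Of 65 tested members 63 had a log2 fold change above 0, beside 5588 of 11799 among all genes. Both Pcna K164R plates lay above all WT plates for 30 of the 65, beside 12.2% of all genes. For 2 the unadjusted p was under 0.05 with higher values, beside 0.797% of all genes. The median was 0.34, beside -0.02 for all genes, and it lay between 0.18 (without WT replicate 1) and 0.44 (with flow cell in place of session) under the 33 alternatives, with 0.42 in session 1 alone. Ccnb1, the cyclin that drives entry into mitosis, was at 226 and 225 CPM in Pcna K164R, against 116, 147 and 147 CPM in WT (0.75 ± 0.30). Cdc20, an activator of the anaphase-promoting complex, was at 77.0 and 100 CPM in Pcna K164R and at 49.5, 78.7 and 103 CPM in WT (0.73 ± 0.24), so its plates overlapped. Over wells, the median share of UMIs on this list was 0.880% and 0.695% on the Pcna K164R plates, against 0.546%, 0.653% and 0.378% on the WT plates, where the median well held 21162 and 15549 UMIs in Pcna K164R and 14960, 7537 and 12280 in WT. S phase genes were nearer to the background, with 33 of 43 above 0, none with an unadjusted p under 0.05 and a median of 0.18, which was -0.01 without double mutant replicate 4. Of 56 ribosome biogenesis genes 47 were above 0 and 4 had an unadjusted p under 0.05 with higher values, beside 0.797% of all genes. Their median of 0.22 was 0.14 without double mutant replicate 4, 0.15 in session 1 alone and 0.38 without WT replicate 1. Nip7, a factor for the assembly of ribosomal subunits, was at 87.4 and 106 CPM in Pcna K164R, against 63.4, 80.3 and 68.2 CPM in WT (0.68 ± 0.23). Mitochondrial ribosomal protein genes had a median of 0.15 with 57 of 73 above 0, and the median was 0.017 without double mutant replicate 4, whereas cytosolic ones had a median of -0.13 with 66 of 79 below 0. The sign of the cytosolic median changed under 9 of the 33 alternatives. Of 45 histone genes 31 were below 0 and 3 had an unadjusted p under 0.05 with lower values, beside 1.13% of all genes. Their median was -0.24. This median was -0.12 without double mutant replicate 4, -0.11 in session 1 alone, -0.04 without Pcna K164R replicate 1, -0.03 with flow cell in place of session and 0.05 with wells thinned to 1000 UMIs. The linker histone gene Hist1h1b was at 8.99 and 8.28 CPM in Pcna K164R, against 20.6, 14.7 and 12.7 CPM in WT (-0.94 ± 0.39).

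Interferon-stimulated genes, the antiviral set that type I interferon induces, had mostly lower values. Of 63 tested members 60 had a log2 fold change below 0. Both Pcna K164R plates lay below all WT plates for 36 of the 63, beside 11.9% of all genes. An unadjusted p under 0.05 was found for 7 with lower values and none with higher values, beside 1.13% and 0.797% of all genes. The median was -0.53 and lay between -1.08 (without WT replicate 1) and -0.34 (without double mutant replicates 3 and 4) under the 33 alternatives. It was also -0.34 in session 1 alone and -0.43 without wells rich in erythroid genes. Usp18, which removes the ubiquitin-like modifier ISG15, was at 6.72 and 3.27 CPM in Pcna K164R, against 12.5, 17.8 and 17.8 CPM in WT (-1.73 ± 0.54). Rsad2, which encodes viperin, was at 17.9 and 16.9 CPM in Pcna K164R, against 43.3, 41.2 and 80.6 CPM in WT (-1.55 ± 0.58). Trim30d was at 13.7 and 14.4 CPM in Pcna K164R, against 23.98, 33.7 and 36.3 CPM in WT (-1.12 ± 0.39). The plates of these 3 genes did not overlap, and the WT plate of the mutants' own session was the nearest to them for Usp18 and Trim30d. The others with a p under 0.05 were Igtp, Cmpk2, Xaf1 and Stat2, and for each of them both mutant plates were below all WT plates. Stat2, a transcription factor through which type I interferon acts, was at 16.3 and 13.9 CPM in Pcna K164R, against 26.2, 19.1 and 27.95 CPM in WT (-0.63 ± 0.29). Over wells the share of UMIs on the list had a median of 0.420% and 0.370% on the Pcna K164R plates and of 0.426%, 0.530% and 0.504% on the WT plates, so the plates of session 1 were close. Of 20 inflammatory genes 3 had an unadjusted p under 0.05, all with lower values, beside 1.13% of all genes. The chemokine gene Ccl4 among them was at 8.24 and 22.3 CPM in Pcna K164R and 38.2, 31.6 and 32.3 CPM in WT (-1.59 ± 0.49).

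Meg3, a maternally expressed imprinted RNA that is abundant in fetal stem cells, had lower values in Pcna K164R without overlap between the plates. It was at 14.7 and 21.9 CPM in Pcna K164R and at 59.8, 68.1 and 60.6 CPM in WT, with a log2 fold change of -1.42 ± 0.38. The WT plates were within a narrow range across both sessions. The fitted value was -1.71 in session 1 alone. It was -0.24 without WT replicate 1, when no WT plate was left in the session of the mutant plates and the comparison ran through the other genotypes. Dlk1 of the same imprinted locus overlapped, at 49.3 and 74.7 CPM in Pcna K164R and 73.6, 55.3 and 42.8 CPM in WT. H19 had a log2 fold change of -1.21 ± 0.43, with 158 and 80.1 CPM in Pcna K164R and 248, 94.3 and 88.9 CPM in WT. It overlapped between the groups, and the paternally expressed Igf2 beside it was at 16.6 and 28.1 CPM in Pcna K164R and 25.0, 14.1 and 23.6 CPM in WT. Over 16 imprinted growth genes the median was -0.17, with 2 members below an unadjusted p of 0.05, beside 1.92% of all genes. It was -0.05 without WT replicate 1 and changed sign under 3 of the 33 alternatives.

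**Figure D4:**
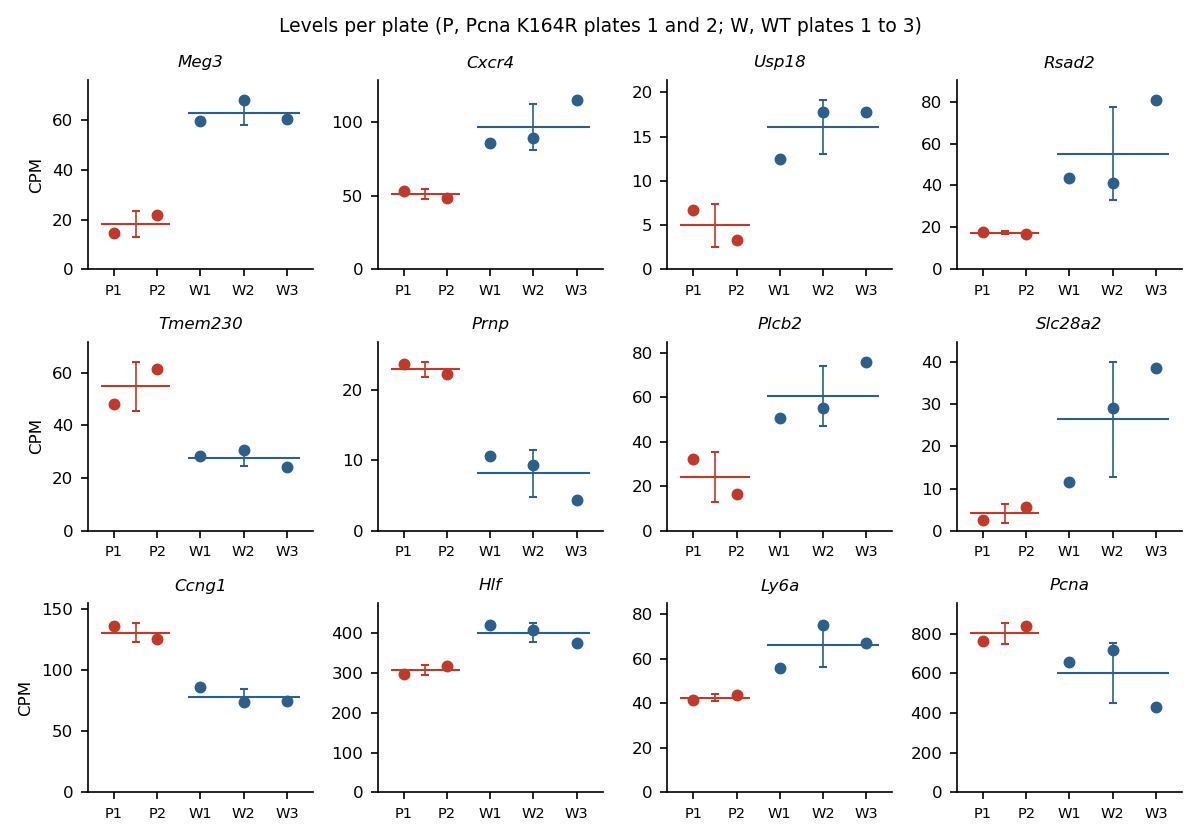
Level in CPM of 12 genes on Pcna K164R plates 1 and 2 (red) and WT plates 1 to 3 (blue); the horizontal lines are group means and the bars 1 SD. Meg3 lies at 14.7 and 21.9 CPM on the mutant plates and at 59.8 to 68.1 CPM on the WT plates, and no gene shown had an adjusted p under 0.05.

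Among haematopoietic programmes, stem cell genes had lower and erythroid genes higher values. Of 38 tested stem cell genes 34 had a log2 fold change below 0. Of the 38, 2 had an unadjusted p under 0.05 with lower values and none with higher values, beside 1.13% and 0.797% of all genes. Both Pcna K164R plates lay below all WT plates for 11, beside 11.9% of all genes. The median was -0.28 and lay between -0.53 (without WT replicate 1) and -0.13 (without wells rich in erythroid genes) under the 33 alternatives, with -0.16 in session 1 alone. Hlf, a transcription factor of stem cells, was at 298 and 317 CPM in Pcna K164R, against 420, 408 and 375 CPM in WT (-0.62 ± 0.25), and the Ly6a values above correspond to -0.71 ± 0.32. Prdm16 was at 18.3 and 22.1 CPM in Pcna K164R, against 28.3, 31.2 and 29.0 CPM in WT, and did not reach an unadjusted p of 0.05 (-0.56 ± 0.32). Of 20 lymphoid priming genes 17 were below 0 with a median of -0.43, which was -0.15 without double mutant replicate 4, -0.18 in session 1 alone and -0.76 without WT replicate 1. Among them Mef2c was at 142 and 158 CPM in Pcna K164R, against 203, 199 and 191 CPM in WT (-0.53 ± 0.24). Flt3, the receptor that marks lymphoid-primed progenitors, was at 143 and 192 CPM in Pcna K164R, against 209, 259 and 237 CPM in WT (-0.66 ± 0.33). Of 40 erythroid genes 33 were above 0 and 3 had an unadjusted p under 0.05 with higher values, beside 0.797% of all genes. Their median was 0.43. Hemgn was at 59.4 and 50.05 CPM in Pcna K164R, against 37.3, 33.7 and 25.8 CPM in WT (0.99 ± 0.38), while Epb4.2 and Trim10 overlapped between the groups. The median depended on single plates and wells. It was -0.03 in session 1 alone, -0.44 without wells that had at least 1% of their UMIs on the erythroid list, 0.04 without double mutant replicate 4 and 1.66 without WT replicate 1. Such erythroid-rich wells made up 7.06% and 6.43% of the kept wells of the Pcna K164R plates, against 3.15%, 1.97% and 3.51% on the WT plates. An exact two-sided permutation test over plates again gave its smallest possible p of 0.1. It too set session aside and followed values already seen, so it decides nothing here. Globins were near their floor, with Hba-a1, whose reads may be shared with its gene copy, at 1 and 13 UMIs in Pcna K164R and 0, 1 and 6 UMIs in WT.

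**Figure D5:**
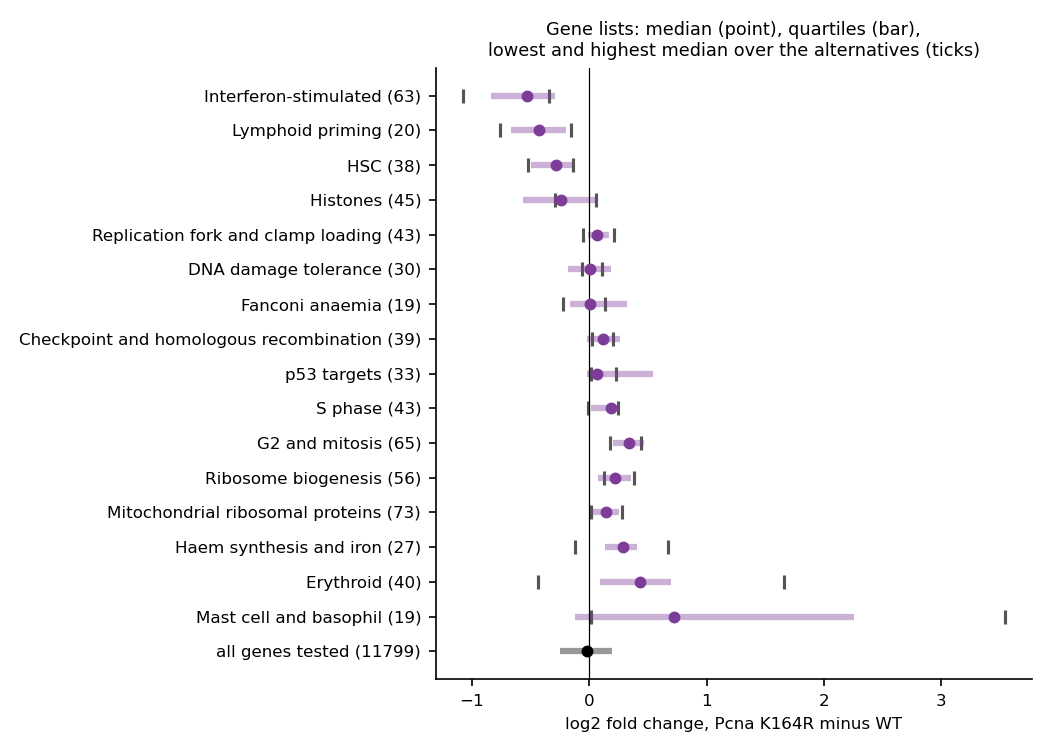
Log2 fold change of Pcna K164R minus WT over the tested members of each gene list (number in brackets): the point is the median, the bar spans the quartiles and the ticks mark the lowest and highest median over the 33 alternatives. The interferon-stimulated list has the lowest median of those shown (-0.53) and the mast cell and basophil list the highest (0.73), beside -0.02 for all genes tested.

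Markers of other cell types differed between plates. The 14 neutrophil markers outside chromosomes X and Y, of which 10 were tested, were summed per plate. They reached 107 and 253 CPM on the Pcna K164R plates and 22.4, 786 and 2697 CPM on the WT plates. The 5 richest wells held 74.4% and 92.7% of these UMIs in Pcna K164R, against 18.8%, 94.8% and 91.6% in WT. Mpo, which encodes myeloperoxidase of granulocyte precursors, was at 317 and 316 CPM in Pcna K164R and at 276, 666 and 1859 CPM in WT. Both quantities separated WT replicates 2 and 3 from the plates of session 1 and not the genotypes. Irf8, a transcription factor of dendritic cells and monocytes, was at 21.9 and 23.3 CPM in Pcna K164R, against 38.6, 61.2 and 38.1 CPM in WT (-0.99 ± 0.42), without overlap. Macrophage markers summed to 787 and 773 CPM in Pcna K164R and to 1042, 246 and 541 CPM in WT. The part of these cells in the other differences was not tested. Megakaryocyte and B cell lists had medians of 0.05 and -0.10, whose signs changed under 5 and 11 of the 33 alternatives.

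Of the remaining genes named by their p, Cxcr4, the chemokine receptor that holds progenitors in their niche, was at 53.4 and 48.7 CPM in Pcna K164R, against 86.0, 89.7 and 115 CPM in WT (-1.05 ± 0.31). Ccdc114, a gene of motile cilia, was at 2.28 and 2.12 CPM in Pcna K164R, against 7.11, 4.37 and 6.53 CPM in WT (-1.82 ± 0.51). Mrap, which encodes an accessory protein of the melanocortin receptors, had 37 and 19 UMIs in Pcna K164R and 8, 3 and 0 UMIs in WT. All 3 had plates that did not overlap, and none passed.

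The same genes were read where Rev1 was absent too. The double mutant was compared with Pcna K164R in the same fit, where 5 of 11799 genes had an adjusted p under 0.05 (0.0424%) and 9.66% an unadjusted p under 0.05. Meg3 was among them and was lower again in the double mutant (log2 fold change -2.60 ± 0.38). Dlk1, Igf2, Wfdc17 and Ifi44, chosen after their values were seen, were also lower there than in Pcna K164R. Between Pcna K164R and WT, the plates overlapped for Dlk1 (-0.37), Igf2 (-0.07) and Ifi44 (-0.70) but not for Wfdc17 (-1.22). No other gene named by the rule passed between the double mutant and Pcna K164R. None did in Rev1 knockout against Pcna K164R (0 of 11799 genes by edgeR, 878 or 7.44% at an unadjusted p under 0.05). Against Pcna K164R the double mutant had 0.23 ± 0.39 for Pcna, -0.10 ± 0.21 for Tmem230 and -0.92 ± 0.47 for Il1rl1 on the log2 scale. The interaction of both mutations, which asks whether the Pcna change had a different effect without Rev1, passed for 0 genes by edgeR and had an unadjusted p under 0.05 for 617 (5.23%). It was -0.02 for Tmem230 and -0.04 for Plcb2, and -1.32 for Meg3, all without an adjusted p under 0.05.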

How the data were processed

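The deposited values were whole-number UMI counts, read counts and transcript counts per gene and well of 384-well plates, the last being estimated counts. Their values follow the usual formula for barcode collisions, as read from the deposited numbers. The submitters' processing notes name BWA 0.7.15 and the build GRCm38 (mm10). How reads were assigned to genes is not given in the sources used here. The deposited UMI counts of wells with at least 1000 UMIs outside ERCC were summed per plate, and the plate was the replicate. All plates use the same 384 well barcodes by design. Doublets were not called, as each well took a sorted cell. Genes were tested with edgeR 4.0.16 in R 4.3.3 (TMM scaling, filterByExpr, quasi-likelihood F-test, Benjamini-Hochberg adjustment over 12221 genes) with genotype and sort session over 12 plates and 6 residual degrees of freedom; DESeq2 1.42.0 was an alternative, and estimated counts were rounded for another. The 422 genes of chromosomes X and Y stayed in the fit and out of the description. The code was tested on simulated data. Shares were compared with exact permutation tests (scipy 1.17.1). Gene positions are RefSeq's for GRCm38.p6, matched by symbol for 99.4% of the genes. Lists are described by counts and medians only. Named genes are the 8 with the smallest p in each direction, Pcna, Rev1, and up to 3 members of 8 lists; others named here were chosen after their values were seen, and a few genes that the rule names are not reported here. The comparison, the lists and the rule were chosen with earlier results of these data known.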

Additional observations from a re-analysis of the deposited data

How the results depend on the processing

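The count of genes past the threshold was 0 and stayed 0 with DESeq2, RLE scaling, library totals, a filter of 50 UMIs over the 5 plates, no session term, the 5 plates alone with or without session, session 1 alone, double mutant replicates 3 and 4 left out, both other well minimums, transcript or read counts, the mitochondrial limit on wells, and without chromosome X and Y or mitochondrial genes. It was 34 (20 higher, 14 lower) with no filter on low counts, 4 with flow cell in place of session (Cma1, Cpa3, Il1rl1 and Tpsb2, all higher), and 1 with wells thinned to 1000 UMIs (Cma1). The cause was not tested. Leaving out each plate in turn gave 0 to 1, which was Mcpt4 without double mutant replicate 2. Leaving out mast-gene-rich or erythroid-gene-rich wells, alternatives chosen after seeing the data, gave 0. Rev1 was -0.58 with no session term, -0.98 with flow cell, -0.22 and -0.59 on the 5 plates with and without session, -0.20 in session 1 alone and -0.20 without double mutant replicates 3 and 4. Leaving out each plate in turn gave Rev1 -0.18 (double mutant replicate 4) to 1.85 and Pcna -0.14 (double mutant replicate 4) to 0.36. With flow cell, Mcpt4 was 4.097, Poli 0.010, Rfc4 -0.11 and Sox4 0.16. With thinned wells, Psrc1 was -0.10 and Pole2 -0.15. Leaving out single plates gave Prss34 -4.41 (WT replicate 1) to 5.28, Fcer1a -1.53 (WT replicate 1) to 7.25 and Hba-a1 -1.26 (Pcna K164R replicate 2) to 4.92. Without erythroid-gene-rich wells, Epb4.2 was -1.55 and Hba-x 0.50. These are log2 fold changes, and each named setting turned the sign. No paired analysis was possible because replicate numbers follow the order of deposit. With 2 plates against 3, the median half-width of a gene's 95% interval was 0.79 on the log2 scale over all genes, 0.62 for genes at 100 to 1000 CPM and 1.52 under 10 CPM.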
